A study of Homo sapiens with 2 samples.

Results

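The miR-26 family comprises miR-26a and miR-26b, and its entries were picked by name from a deposited table of mature miRNA counts. An entry was taken when its name was hsa-miR-26a or hsa-miR-26b, with or without a copy number and an arm. This gave 5 of 2904 entries, namely miR-26a-5p, miR-26b-5p, miR-26a-1-3p, miR-26a-2-3p and miR-26b-3p. The counts came from wild-type BEAS-2B, a line of immortalised epithelial cells from human bronchus, kept for 24 h with manganese or with vehicle (control). Each of the 2 groups was 1 library, the sources used here do not give the manganese dose, and both cultures were grown in serum-supplemented medium. The family was chosen for description with the counts of these libraries already known, so the values below describe the 2 libraries and no p-value is given. Intervals are exact 95% intervals that cover counting error only.

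A miRNA is cut from a hairpin as a short duplex, and one strand, the guide, is kept by an Argonaute protein while the other, the passenger, is mostly degraded. The guide finds messenger RNAs by pairing through its seed, bases 2 to 8 from its 5′ end, and lowers their translation and stability. The miR-26 guides come from the 5p arm. They are known as growth-restraining miRNAs that are repressed by the oncoprotein MYC and that target EZH2, the histone methyltransferase of the Polycomb complex. Their hairpins lie in introns of the CTDSP genes, which encode small phosphatases that act on the C-terminal domain of RNA polymerase II and on the retinoblastoma protein. Co-expression of miR-26 with these hosts has been described as a shared brake on the cell cycle.

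The mature sequences show how close the 2 guides are, with the seed in capitals and each sequence read 5′ to 3′ (RefSeq, GRCh38.p14).
miR-26a-5p: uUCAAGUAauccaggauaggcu
miR-26b-5p: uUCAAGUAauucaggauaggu
miR-26a-1-3p: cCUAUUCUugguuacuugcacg
miR-26a-2-3p: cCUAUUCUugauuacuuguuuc
miR-26b-3p: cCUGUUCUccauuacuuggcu
The guides miR-26a-5p and miR-26b-5p share the seed UCAAGUA and are equal over their first 10 bases. Aligned without gaps from the 5′ end, 19 of 21 compared positions were equal, and the differences from miR-26a-5p to miR-26b-5p were C11U and C21U, counted from 1 at the 5′ end. The lengths are 22 and 21 bases. The 3p arms have other seeds, CUAUUCU in both miR-26a copies and CUGUUCU in miR-26b. The passengers miR-26a-1-3p and miR-26a-2-3p are equal at 17 of 22 positions, so the 3p arms tell the miR-26a hairpins apart while the 5p arm cannot.

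A set of 3 genes carries the family, whose hairpins are shown with the 5p and 3p arms in capitals to mark which part of each gave the counted RNAs.
MIR26A1: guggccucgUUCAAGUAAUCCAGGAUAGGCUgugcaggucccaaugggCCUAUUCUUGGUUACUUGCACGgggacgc
MIR26A2: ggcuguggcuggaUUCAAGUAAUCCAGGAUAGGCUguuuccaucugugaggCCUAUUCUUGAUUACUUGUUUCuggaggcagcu
MIR26B: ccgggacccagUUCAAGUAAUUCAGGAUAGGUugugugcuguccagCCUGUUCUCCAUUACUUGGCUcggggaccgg
MIR26A1 (chr3:37969404-37969480, plus strand, GRCh38) lies in intron 5 of 7 of the principal transcript of CTDSPL. MIR26A2 (chr12:57824609-57824692, minus strand) lies in intron 5 of 7 of CTDSP2, and MIR26B (chr2:218402646-218402722, plus strand) in intron 4 of 6 of CTDSP1. Each hairpin has the strand of its host, and 0 transcripts of the 3 hosts have an exon over it. The distance from the annotated start of the host gene to the hairpin is 107444 bases in CTDSPL, 22047 in CTDSP2 and 4390 in CTDSP1. Host messenger RNA was not analysed here.

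The control library held 1064179 counts and the manganese library 1091070. To compare libraries, counts were divided by library totals corrected with TMM factors, and levels are given as CPM, scaled counts per 1000000. An entry with at least 20 counts over both libraries was called measured, which held for 403 entries and for 4 of the 5 miR-26 entries. The library label was checked against markers of airway epithelium. Of 7 such markers 3 were measured, their summed level was 103 CPM in the control and 209 with manganese, miR-203a-3p was at 0 in both libraries and miR-141-3p at 0 in the control. Markers of red blood cells (2 of 3 measured) summed to 8889 CPM in the control and 164880 with manganese, with miR-144-3p at 0 in the control. Most of that sum was miR-486-5p, with 9597 and 174822 counts, beside 50 and 1564 for miR-451a. Summed levels were 12.0 and 126 CPM for leukocyte markers (3 of 4 measured) and 48.8 and 404 CPM for mesenchymal markers (2 of 4 measured, miR-214-3p at 0 in both). Of the mesenchymal markers, miR-143-3p had 26 and 354 counts, while miR-145-5p had 2 and 2. The entry joining miR-199b-3p and miR-199a-3p had 25 and 76 counts. The endothelial miR-126-3p was at 17.5 and 36.5 CPM. Muscle markers summed to 9.21 and 23.4 CPM (1 of 2 measured, miR-133a-3p at 0 in both), and neuronal markers to 0.921 and 5.61 CPM, with 0 of 2 measured and miR-124-3p at 0 in the control. The hepatocyte miR-122-5p was at 0 in both. The part of these markers in the miR-26 values was not tested. Bulk RNA does not show the origin of the marker counts, nor whether cell number or RNA per cell differed.

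Both miR-26 guides were among the most abundant miRNAs of these cells, and their order was opposite in the 2 libraries. For the guide hsa-miR-26a-5p the control library held 13507 counts and the manganese library 12535, or 12445 and 11717 CPM. For the guide hsa-miR-26b-5p they held 12372 and 14207 counts, or 11399 and 13280 CPM. By count, miR-26a-5p ranked 12 of all entries in the control and 13 with manganese, whereas miR-26b-5p ranked 14 and 12. The guide miR-26a-5p took 1.27% (1.25 to 1.29) of all control counts and 1.15% (1.13 to 1.17) of all manganese counts. The guide miR-26b-5p took 1.16% (1.14 to 1.18) and 1.30% (1.28 to 1.32). All 5 entries together held 2.43% (2.41 to 2.46) and 2.45% (2.42 to 2.48) of the counts, so the family's share differed between libraries by less than the counting intervals.

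**Figure D1:**
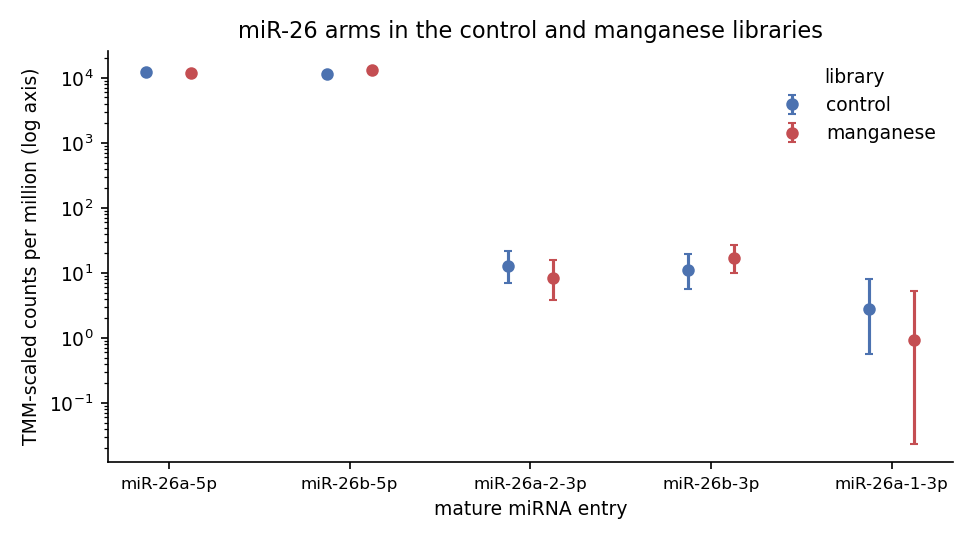
Level in CPM (TMM-scaled, log axis) of each miR-26 arm in the control and manganese libraries, with exact 95% Poisson intervals for counting error. The 2 guides lie between 11399 and 13280 CPM, and the 3 passenger arms between 0.935 and 16.8 CPM.

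The ratio of miR-26b-5p to miR-26a-5p needs no scaling, since both counts come from the same library. In the control library it was 0.916 (0.894 to 0.939), and in the manganese library 1.13 (1.11 to 1.16). In other terms, miR-26b-5p made up 47.8% (47.2 to 48.4) of the family's 5p counts in the former and 53.1% (52.5 to 53.7) in the latter. The ratio was thus 1.24 times as high in the manganese library (1.20 to 1.28). A 3p arm leaves the same hairpin as its guide, and the 3p counts of miR-26b over those of both miR-26a copies were 12 over 17 in the control and 18 over 10 with manganese. Their ratio was 0.706 (0.308 to 1.57) and 1.80 (0.788 to 4.36), a shift of 2.55 times (0.774 to 8.53). This interval includes no shift, so at this depth the 3p arms could not show whether the passenger strands moved with the guides.

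With TMM scaling, the fold of each guide, manganese over control, was smaller in size than the median of the measured miRNAs. It was 0.941 (0.919 to 0.965) for miR-26a-5p and 1.16 (1.14 to 1.19) for miR-26b-5p, and 1.05 (1.03 to 1.07) for the summed family. Under a rule of at least 2-fold with an interval that excludes 1-fold, 12.9% of the 403 measured entries were higher with manganese and 6.45% lower, and 0 of the 4 measured miR-26 entries passed in either direction. At any size, intervals lay above 1-fold in 21.3% of measured entries and below it in 28.5%. Counting intervals are narrow for abundant miRNAs, and among the 58 entries with a mean of at least 1000 CPM these shares were 27.6% and 60.3%, with 5.17% at least 2-fold higher and 5.17% at least 2-fold lower. An interval off 1-fold is therefore common at the abundance of the guides. The median size of the log2 fold was 0.46 over all measured entries and 0.31 over the 58 abundant ones. Of these 58, 10 had a smaller size than miR-26a-5p and 23 a smaller size than miR-26b-5p. Sizes of log2 folds change with the scaling, and they were compared here with TMM factors only.

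**Figure D2:**
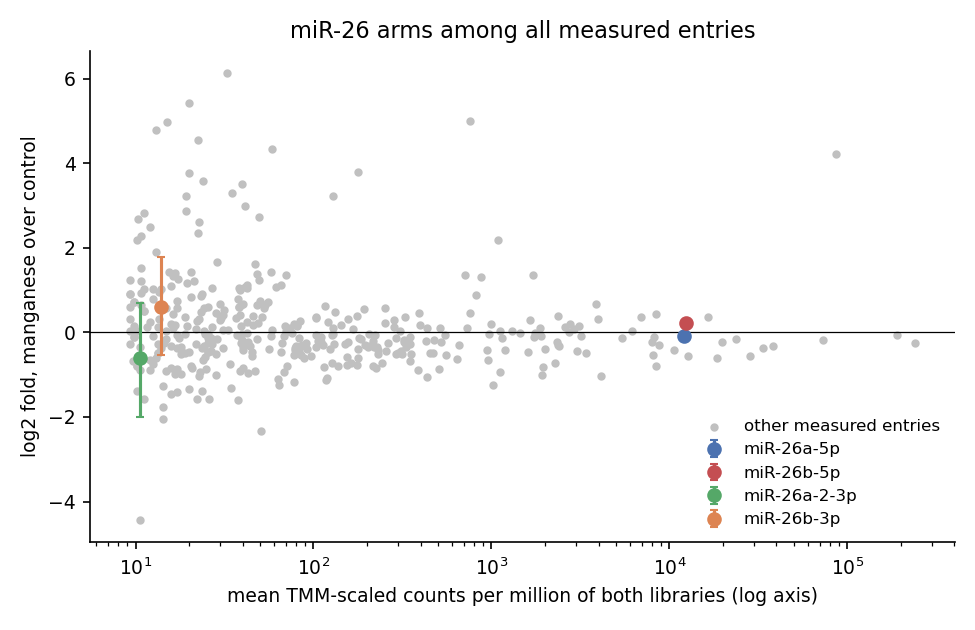
Log2 fold (manganese over control) of each measured entry against its mean scaled level (log axis), with the 4 measured miR-26 arms in colour and their 95% counting intervals. The 5p arms of miR-26a (−0.087) and miR-26b (0.22) lie on either side of 0 among entries of like abundance, and 2 entries with a count of 0 in 1 library are not drawn.

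The side of 1-fold on which miR-26a-5p lay depended on the scaling, while miR-26b-5p lay above 1-fold under all 5 scalings run. With total counts the folds were 0.905 for miR-26a-5p and 1.12 for miR-26b-5p. Without the red blood cell miR-486-5p and miR-451a in the totals, they were 1.07 and 1.32. A scaling moves every entry by the same factor, so the place of an entry among the others is free of it. The median log2 fold of the measured entries was −0.084, and miR-26a-5p lay at −0.0034 from that median, which is 0.998-fold of it (0.974 to 1.02, with the median taken as fixed). The guide miR-26b-5p lay 0.30 above the median, or 1.23-fold of it (1.20 to 1.26). Of 403 measured entries, 198 had a lower fold than miR-26a-5p and 269 a lower fold than miR-26b-5p. Among the 58 abundant entries these numbers were 32 and 47.

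**Figure D3:**
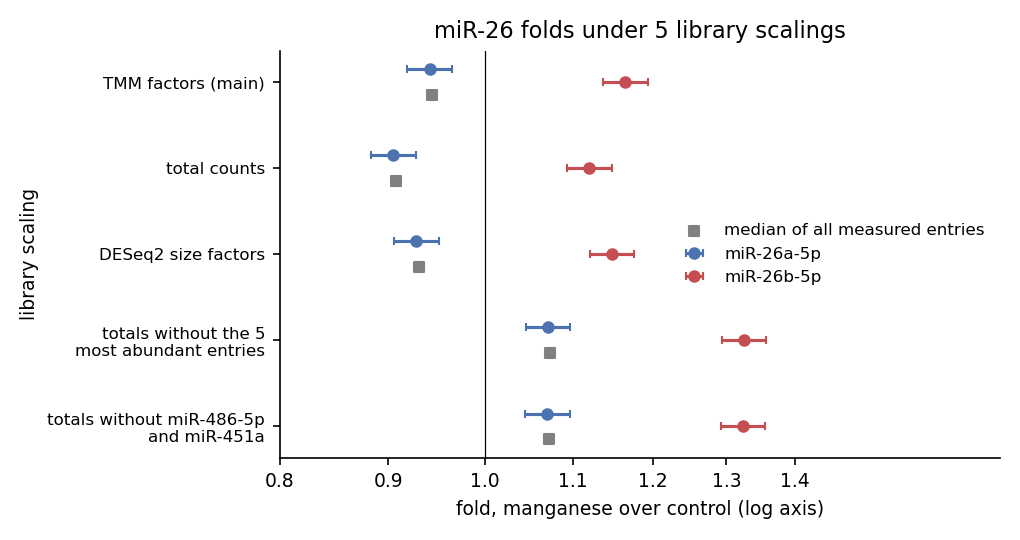
Fold (manganese over control, log axis) of miR-26a-5p and miR-26b-5p under 5 library scalings, with 95% counting intervals, and the median of all measured entries as squares. The miR-26a-5p points follow the median from 0.905 to 1.07, and the miR-26b-5p points lie to its right, from 1.12 to 1.33.

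Entries next to the guides in abundance had lower folds, apart from one entry with a p- prefix that the sources used here do not explain. Above miR-26a-5p in the control stood p-hsa-miR-247 with 15599 and 19677 counts (fold 1.28, 1.25 to 1.31), miR-30c-5p with 16427 and 11060 (0.683, 0.667 to 0.700), and let-7g-5p with 23109 and 19596 (0.860, 0.844 to 0.877). Between the guides stood miR-181a-5p with 13104 and 9699 counts (0.751, 0.731 to 0.771). Below miR-26b-5p stood miR-24-3p with 11619 and 6571 counts (0.574, 0.557 to 0.591), miR-30e-5p with 10508 and 8451 (0.816, 0.793 to 0.840), and let-7c-5p with 10300 and 7054 (0.695, 0.674 to 0.716). Of these 7 neighbours, 6 had a lower fold than either guide. Among the 58 entries with at least 1000 CPM, 55.2% had a lower fold than miR-26a-5p, the lower of the guides.

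The 50 most abundant entries were searched for the log2 folds nearest to each guide, as a measure of likeness over the 2 libraries. For miR-26a-5p the nearest were miR-29a-3p (fold 0.944, 0.0033 log2 units away), miR-125b-5p (0.948), miR-574-5p (0.929), let-7d-5p (0.924) and let-7a-5p (0.962, 0.032 units away). For miR-26b-5p they were miR-155-5p (1.15, 0.022 units away), miR-15b-5p (1.12), miR-301a-3p (1.23), miR-191-5p (1.25) and miR-25-3p (1.08, 0.10 units away). With 1 value per library, likeness here is only a like fold.

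The shift between miR-26a and miR-26b was set beside that of other lettered paralogues with miR names, the a and b members of one number and arm. Pairs with let-7 names were left out, although let-7a-5p (210027 and 199234 counts) and let-7b-5p (45882 and 36259) were more abundant than the miR-26 guides. Among miR names there were 30 pairs with both entries measured, and the miR-26 shift of 1.24 times ranked 24 by size. The median size was 1.47 times over all pairs and 1.43 times over the 15 pairs known to share a seed, of which 10 shifted by more than miR-26. The largest sizes belonged to miR-99a/b-3p (14.7 times in favour of b, 2.27 to 612), where miR-99a-3p had 22 and 1 counts, to miR-92a/b-3p (4.53 times in favour of a) and to miR-34a/b-5p (3.09 times in favour of a). Nearest to miR-26 in size were miR-99a/b-5p (1.27, 1.08 to 1.499), miR-130a/b-3p (1.28, 0.953 to 1.73) and miR-30a/b-5p (1.29, 1.20 to 1.38), all in favour of b. In 7 pairs every count was at least 1000, and 5 of these shifted by more than miR-26. The most abundant of them beside miR-26 in both members was miR-181a/b-5p, whose b over a ratio went from 0.460 to 0.299, a shift of 0.651 times (0.618 to 0.685). Intervals excluded no shift in favour of b in 12 of the 30 pairs and in favour of a in 5. Sizes in the remaining pairs may reflect counting error. Some pairs, such as miR-34a/b-5p, do not share a seed. As a point value, the miR-26 shift was on the small side among these pairs.

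**Figure D4:**
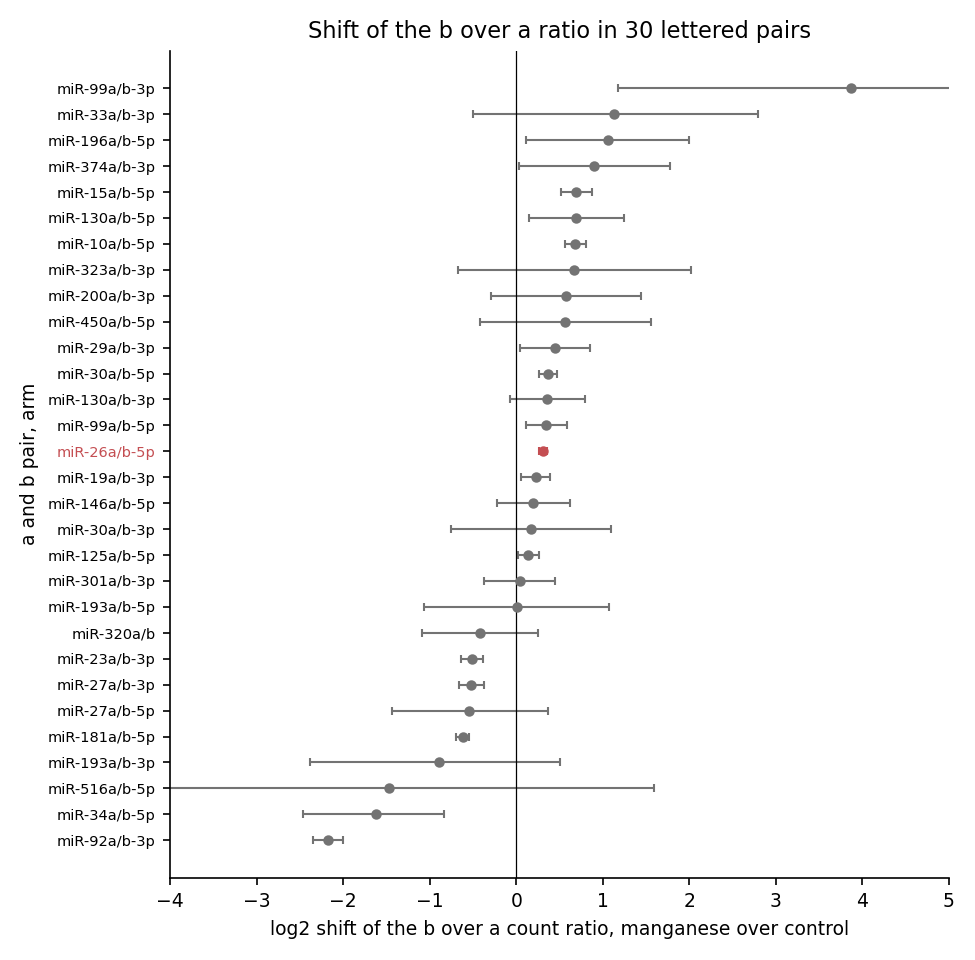
Log2 shift of the b over a count ratio (manganese over control) in 30 pairs of lettered paralogues with miR names, let-7 pairs left out. Bars are exact 95% counting intervals, with miR-26 in red and 2 intervals running past the axis. The miR-26 pair lies at 0.31 with a narrow interval, and shifts to either side of 0 occur in the other pairs.

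The passenger arms were rare. The arm miR-26a-2-3p had 14 counts, and with manganese 9 (12.9 and 8.41 CPM, fold 0.652, 0.249 to 1.62). The arm miR-26b-3p had 12 and 18 counts (11.1 and 16.8 CPM, fold 1.52, 0.694 to 3.46). The arm miR-26a-1-3p, with 3 and 1 counts, was not measured (fold 0.338, 0.00644 to 4.21). All 3 intervals include 1-fold. Of the miR-26a counts, the 3p arms made up 0.126% (0.0732 to 0.201) in the control library and 0.0797% (0.0382 to 0.147) in the other. For miR-26b the 3p share was 0.0969% (0.0501 to 0.169) and 0.127% (0.0750 to 0.200). These intervals overlap between libraries and between paralogues, and the 5p over 3p ratio of counts ran from 789 to 1254 over both paralogues and libraries. Of the 3p counts that separate the miR-26a copies, MIR26A2 in CTDSP2 gave 14 of 17 in the control (82.4%, 56.6 to 96.2) and 9 of 10 with manganese (90.0%, 55.5 to 99.7). The rest came from MIR26A1 in CTDSPL, and whether the 5p counts divide in the same way was not tested.

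Among entries matched by name to a RefSeq sequence, no counts were found for other miRNAs with the seed UCAAGUA. RefSeq holds miR-1297 and miR-4465 with this seed, and miR-1297 is equal to miR-26b-5p over its first 15 bases. Both had 0 counts in each library. The set floor of 3 counts, used here in place of an interval, equals 2.76 CPM in the control and 2.80 with manganese. The counts found for this seed were those of the 2 miR-26 guides, 25879 in the control and 26742 with manganese. Seeds of entries without such a match were not examined. Of 965 entries with counts, 806 were matched by name to a single RefSeq seed. They fell into 694 seed groups, and the miR-26 group ranked 6 among these groups in both libraries. A failed match does not mean that RefSeq lacks the miRNA, so groups may lack members. Above it stood the groups led by let-7a-5p, miR-21-5p, miR-30a-5p, miR-221-3p and miR-16-5p. Folds of these 5 groups ran from 0.680 for the miR-221-3p group to 0.915 for the miR-16-5p group, against 1.05 (1.03 to 1.07) for the miR-26 group. Of the 159 entries not matched to a single seed, 1 had more counts than the miR-26 group in the manganese library, miR-486-5p with 174822. In the control 0 had more.

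Other miRNAs repressed by MYC had a median fold near that of all entries, where miR-26a-5p also lay. All 21 listed members were measured, 1 was at least 2-fold higher with manganese and 0 were lower, where 12.9% and 6.45% of all measured entries were. The higher one was the lymphoid miR-150-5p, with 1 and 42 counts (42.6-fold, 7.24 to 1723), which is also a leukocyte marker here. The median log2 fold of the list was −0.11, against −0.084 for all measured entries, and 12 members had an interval below 1-fold and 3 above. Intervals lay below 1-fold in 28.5% of all measured entries and in 60.3% of those with at least 1000 CPM, and above it in 21.3% and 27.6%. Its most abundant members were let-7a-5p (210027 and 199234 counts, fold 0.962), let-7f-5p (84857 and 73471, 0.878), miR-16-5p (26968 and 23907, 0.899) and let-7g-5p. The first, second and last are growth-restraining let-7 miRNAs, and miR-16-5p targets cyclins and BCL2. The guide miR-26b-5p, at a log2 fold of 0.22, lay above 18 of the 21 members. It also lay above 66.7% of all measured entries and 81.0% of those with at least 1000 CPM.

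As point values, folds of the measured miRNAs among others known to target EZH2 were lower than those of both miR-26 guides. The exception was let-7a-5p, which lay between the guides. Of 11 such entries that the count file lists, 8 were measured, 0 were at least 2-fold higher (12.9% of all measured entries) or lower (6.45%), and 5 had an interval below 1-fold. The share with such an interval was 28.5% of all measured entries and 60.3% of those with at least 1000 CPM, so 5 of 8 is near that of abundant entries. Their median log2 fold was −0.27, with a range from −0.53 to −0.055. The most abundant were let-7a-5p, which is also in the MYC list, let-7b-5p with 45882 and 36259 counts (fold 0.802, 0.791 to 0.813), let-7c-5p and let-7e-5p with 9361 and 7886 counts (0.855, 0.829 to 0.881). The value of miR-26a-5p on this log2 scale was −0.087. Lower values than this were found in 49.1% of all measured entries and 55.2% of those with at least 1000 CPM. The 5 intervals below 1-fold were those of let-7a-5p, let-7b-5p, let-7c-5p, let-7e-5p and miR-98-5p. All 5 belong to the let-7 and miR-98 family. Intervals of miR-101-3p (fold 0.872, 0.723 to 1.05), miR-138-5p (0.916, 0.746 to 1.12) and miR-137 (0.774, 0.461 to 1.29) included 1-fold. They also included the miR-26a-5p fold of 0.941.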

How the data were processed

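Small RNA from 2 BEAS-2B cultures was extracted with a column kit and sequenced, per the labels' protocols. The authors' deposited table holds whole-number counts for 2904 mature miRNA entries, 1 column per library; the unit was read from the values. A second deposited table gives 1 value per entry, another unit, equal to the manganese count minus the control count in 2904 of 2904 entries at a tolerance of 0. Per the submitters' processing notes the genome build was hg38. Nothing in the sources used here names the aligner, counter, annotation or mismatch handling. Reads that a counter allowing mismatches could place on either guide are therefore a source of uncertainty in the separate miR-26a-5p and miR-26b-5p counts.

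Counts were scaled with TMM factors of edgeR 4.0.16 in R 4.3.3 (1.02 control, 0.981 manganese). Folds have exact conditional binomial intervals, shares exact Clopper-Pearson intervals, and shifts of ratios exact conditional odds-ratio intervals (scipy 1.17.1). Counting error alone enters the intervals and the floor of 3 counts, since each group holds 1 library. No molecular identifiers are mentioned, so it is not known whether counts include copies of the same molecule. If they do, the intervals are too narrow even for counting error. Neither a replicate check nor a test was possible with a single library in each group. The interval code was checked on simulated data. Hosts came from GENCODE release 29, whose hairpin positions equal those of RefSeq. Alternatives were scaling by total counts, by DESeq2 1.42.0 size factors, by totals without the 5 most abundant entries or without miR-486-5p and miR-451a, count minimums of 1 and 100 in place of 20, a 1.5-fold rule, no p- entries, and paralogues counted over both arms.

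Named miRNAs were all miR-26 entries, the 3 neighbours of each guide on either side, the 5 nearest in fold among the 50 most abundant, up to 4 abundant members of each list, and, of the lettered pairs, the 3 largest shifts, the 3 nearest in size and those of like abundance. The search by fold was extended from miR-26a-5p to miR-26b-5p, and miR-150-5p was named, after values were seen. Members and lists were chosen with earlier results of these data known.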

Additional observations from a re-analysis of the deposited data

How the results depend on the processing

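The fold of miR-26a-5p was 0.905 with total counts, 1.07 without the 5 most abundant entries in the totals and 1.07 without miR-486-5p and miR-451a, so that its direction turned in the last pair of scalings. Under the same 3 scalings that of miR-26b-5p was 1.12, 1.33 and 1.32, and that of the summed family 1.01, 1.19 and 1.19. That pair raised the median log2 fold of the measured entries by 0.19 and 0.18, gave 15 lower entries each in place of 26, moved the median of the MYC list to 0.071 and 0.070 and that of the EZH2 list to −0.087 and −0.088. Dropping the count minimum gave 82 higher entries against 52, and raising it to 100 counts left 17 higher and 10 lower. The number of measured entries also changes with this minimum. A 1.5-fold rule gave 57 lower entries, 2 of them in the MYC list. With at least 100 counts the MYC list had 0 higher members, and the miR-26 shift ranked 13 of 17 pairs. Counting both arms gave a shift of 1.24, as with the 5p arms. Depth limits the 3p arms, whose intervals all include 1-fold. No paired analysis was possible because each group holds 1 library. The cause of the changes between settings was not tested.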
